A study of Schmidtea mediterranea with 5 samples.

Results

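*PCNA* (transcript SmedASXL_002240) and *mcm2* (SmedASXL_014198) are 2 DNA replication genes of the planarian *Schmidtea mediterranea*, described here across the 5 RNAseq libraries of the series. They were chosen by these transcript identifiers, and both were found among the 68301 transcripts that have a value in every library. All 5 libraries come from the clonal asexual CIW4 strain, with 1 library per condition. The X2 library comes from cells sorted in the gate that is associated with stem cell progeny, and the X1 library from cells sorted in the stem cell gate, both after Hoechst staining of dissociated animals. By the paper, the X1 gate takes cycling cells by their raised DNA content, and the X2 gate takes cells of lower Hoechst signal. The *mex3-1(RNAi)* library comes from whole animals taken 12 days after 1 feed of double-stranded RNA against *mex3-1*, which encodes an RNA-binding protein, and the *control(RNAi)* library from whole animals fed *unc22* double-stranded RNA of *Caenorhabditis elegans* on the same schedule. The irradiated library comes from whole animals 7 days after 60 Gy of γ-irradiation, a dose that removes the dividing cells. Each RNAi library pools equal amounts of 3 RNA preparations, and the sorted cells come from many animals, so no library tells animals apart.

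The protein PCNA is the ring-shaped sliding clamp that holds DNA polymerases on the template and recruits other replication and repair factors to it. MCM2 is a subunit of the helicase that is loaded on replication origins before S phase and then unwinds the DNA ahead of the polymerases. In animals both genes are typically induced as cells enter the cell cycle. In planarians the dividing somatic cells are the stem cells (neoblasts), and *PCNA* is widely used as their marker.

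Values are mapped reads of a transcript per 1000000 mapped reads of its library (CPM). Reads shared with near-identical transcripts were not tested for. Each library held 60528509 to 69835694 mapped reads, so 836 reads or more lay behind each level of the pair outside the irradiated library. A fold is the ratio of CPM + 1 in the first library named over that in the second, after the methods of the study, and is given on the log2 scale unless stated. All 95% intervals cover counting error only: exact Poisson intervals for a level, and exact Clopper-Pearson intervals of the read split for a fold. With 1 library per condition there is no replicate check on any difference below, and no p-value is given. The libraries carried the markers of their labels. The stem cell gene *piwi-1* had 3697 CPM in X1 and only 3.21 CPM after irradiation, the progeny gene *prog-1* had 2156 CPM in X2 against 91.2 CPM in X1, and *mex3-1* was at 23.4 CPM in *mex3-1(RNAi)* and 144 CPM in *control(RNAi)*. *piwi-1* is an extreme marker. Its log2 fold in X1 over irradiated animals, 9.78, was the highest of 9 PIWI, Vasa, Tudor and Bruli stem cell transcripts. Their median was 3.92 and their lowest 2.96.

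*PCNA* was highest in the stem cell fraction and almost undetectable after irradiation. It was at 400.7 CPM in X1 (95% interval 395.8 to 405.6), 114 CPM in *mex3-1(RNAi)* (112 to 117), 39.9 CPM in X2 (38.4 to 41.6), 31.2 CPM in *control(RNAi)* (29.9 to 32.5) and 0.401 CPM in irradiated animals (0.266 to 0.579). The last value rests on 28 reads, against 25972 reads in X1. No 2 neighbours in this order had overlapping counting intervals, but the spread between libraries of the same condition was not analysed here.

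*mcm2* was at 279.8 CPM in X1 (275.7 to 283.9), 104 CPM in *mex3-1(RNAi)* (102 to 107), 21.6 CPM in *control(RNAi)* (20.6 to 22.8), 13.8 CPM in X2 (12.9 to 14.8) and 0.415 CPM in irradiated animals (0.278 to 0.596), the last from 29 reads. The order was that of *PCNA* with 1 exchange. *mcm2* was lower in X2 than in *control(RNAi)* animals, whereas *PCNA* was higher in X2. Again no neighbours overlapped within counting error. Levels of the pair are not compared with each other, because CPM is not scaled for transcript length.

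**Figure D1:**
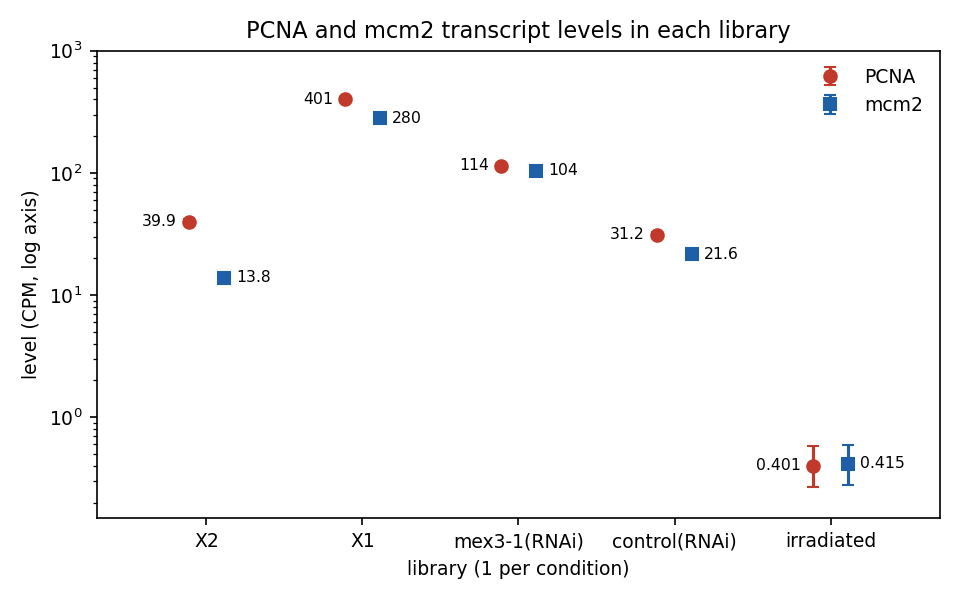
Level of *PCNA* (circles) and *mcm2* (squares) in CPM on a log axis, for the 5 libraries, with 95% Poisson intervals that are smaller than the symbols except in irradiated animals. Both genes were highest in X1, at 401 and 280 CPM, and lay at 0.401 and 0.415 CPM in irradiated animals; the X2 and *control(RNAi)* libraries stand in opposite order for the 2 genes.

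The first comparison sets the sorted stem cells against whole animals whose dividing cells were removed by irradiation. As it sets a sorted fraction against whole animals, it does not by itself measure loss on irradiation. In X1 over irradiated animals, *PCNA* had a log2 fold of 8.16 (7.99 to 8.31), a ratio of 287 (254 to 317), and was number 4 from the highest of the 21044 transcripts that reached 1 CPM in X1 or in irradiated animals. *mcm2* had a log2 fold of 7.63 (7.46 to 7.78), a ratio of 198 (176 to 220), and was number 11. Because both genes were under 1 CPM in irradiated animals, the added 1 sets much of these ratios. Without it, *PCNA* was 999-fold higher (691 to 1504) and *mcm2* 674-fold higher (469 to 1006). Of the transcripts tested, 24.1% were at least 2-fold higher in X1, and the median over all of them was -0.18 on the log2 scale. Whole animals hold many differentiated cells that the X1 gate leaves out, and in such bulk RNA fewer cells of a type and less RNA per cell cannot be told apart.

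Irradiated animals can also be compared with other whole animals. *PCNA* had 31.2 CPM in *control(RNAi)* animals against 0.401 CPM in irradiated animals, a log2 fold of 4.52 (4.34 to 4.67) that ranked 12 from the highest of 19254 transcripts. *mcm2* was at 21.6 and 0.415 CPM in the same libraries, a log2 fold of 4.0 (3.82 to 4.16) and rank 20. Without the added 1, the ratios were 77.8 (53.7 to 117) for *PCNA* and 52.1 (36.1 to 78.1) for *mcm2*. A 2-fold higher level in *control(RNAi)* was met by 3.29% of transcripts. The irradiated library was sequenced together with X1 and X2 and its labels name no RNAi feeding, so irradiation, feeding and sequencing run cannot be told apart in this pair.

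Both replication genes were also far above irradiated animals in the X2 library. *PCNA* was at 39.9 CPM in X2 and 0.401 CPM in irradiated animals, a log2 fold of 4.87 (4.69 to 5.02) and number 29 from the highest of 20494 transcripts. *mcm2* had 13.8 against 0.415 CPM, or 3.39 (3.20 to 3.55) and number 116. Here too a sorted fraction is set against whole animals, and the added 1 sets much of the ratios. Without it, *PCNA* was 99.6-fold higher (68.7 to 150) and *mcm2* 33.3-fold higher (22.99 to 49.98). The X2 over irradiated ratio of *mcm2*, without the added 1, was 0.334 times that of *PCNA* (95% Woolf interval 0.198 to 0.565). At 2-fold, 23% of transcripts were higher in X2. In the same 2 libraries *piwi-1* was at 934 CPM and 3.21 CPM, so X2 also held RNA of a stem cell marker. Its part in the level of *PCNA* and *mcm2* in X2 was not tested.

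The other 9 genes of a list of 11 for the cell cycle and DNA replication put these values in context. The list was picked here from the known stem cell genes of the study. The study lists all 11 as verified stem cell genes, so a high level over irradiated animals is not independent evidence. All 11 were at least 2-fold higher in X1 than in irradiated animals, with a median log2 fold of 5.92, and all 11 were in X2, with a median of 3.63. In *control(RNAi)* animals 10 of the 11 were, with a median of 2.78. The same threshold was met by 24.1%, 23% and 3.29% of all transcripts. Without *PCNA* and *mcm2*, the median log2 folds of the other 9 were 5.68 in X1, 3.63 in X2 and 2.44 in *control(RNAi)*. *PCNA* had the highest fold of the 11 in all 3 of these comparisons. *mcm2* was the third in X1 and in *control(RNAi)*, after *PCNA* and *H2B*, but only number 8 of 11 in X2. In *control(RNAi)* its fold equalled that of *CyclinB2*, also 4.0 (3.83 to 4.12). The places of both genes rest on the added 1. Without it *PCNA* came after *H2B* and *CyclinB2* in each comparison, and *mcm2*, at 33.3 (22.99 to 49.98), was above *mcm5*, *RRM2B* and *H2A* in X2. The ratios of *H2B* were 2839 (1378 to 7062) in X1, 173 (83.9 to 432) in X2 and 219 (106 to 546) in *control(RNAi)*, from 7 reads in irradiated animals. Those of *CyclinB2* were 1019 (607 to 1864), 141 (83.5 to 258) and 90.7 (53.8 to 166), with intervals that overlap those of *PCNA*.

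Other genes of DNA replication and repair on the list had lower folds than the pair. *mcm5*, which encodes another helicase subunit, had 258 CPM in X1 and only 1.16 CPM after irradiation, a log2 fold of 6.90 (6.73 to 7.07). *RRM2B*, named for a subunit of the ribonucleotide reductase that makes DNA precursors, had 344 against 5.76 CPM, or 5.68 (5.55 to 5.80). *msh6*, of DNA mismatch repair, had 80.2 against 0.344 CPM, or 5.92 (5.75 to 6.06). The ratios differed by more than counting error. Without the added 1, the ratio of X1 over irradiated animals was 4.50 times larger for *PCNA* than for *mcm5* (95% Woolf interval 2.93 to 6.91) and 3.03 times larger for *mcm2* than for *mcm5* (1.98 to 4.64).

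Regulators and histones spread more widely. The mitotic cyclin gene *CyclinB2* had 204 CPM in X1 and only 0.200 CPM after irradiation, a log2 fold of 7.42 (7.26 to 7.53). *CyclinD2*, whose homologs act in G1, had 4.07 (3.88 to 4.24), and *Rb*, the homolog of a repressor of S phase entry, had 3.62 (3.54 to 3.70). Among the core histones, *H2B* had 284.5 against 0.100 CPM, or 8.02 (7.89 to 8.10), whereas *H2A* had 4.22 (4.18 to 4.26) and *H3* had 3.13 (3.09 to 3.16). *H2A* and *H3* were still at 81.2 and 108 CPM in irradiated animals. The libraries were made from poly(A)-selected RNA, and many replication-dependent histone mRNAs of animals have no poly(A) tail. Whether these 3 transcripts have one was not tested.

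**Figure D2:**
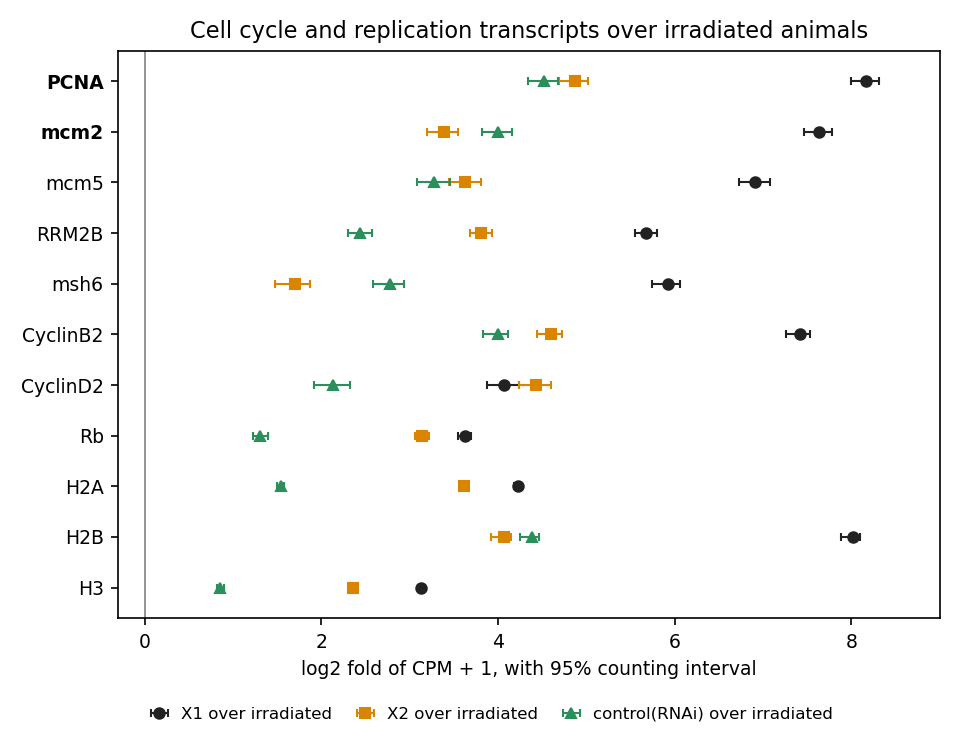
Log2 fold of CPM + 1 over irradiated animals for the 11 cell cycle and DNA replication transcripts, in X1 (circles), X2 (squares) and *control(RNAi)* animals (triangles), with 95% counting intervals. *PCNA* is farthest right for each symbol, at 8.16, 4.87 and 4.52, and *mcm2* lies at 7.63, 3.39 and 4.0.

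The next comparison sets the progeny gate against the stem cell gate. Because the X1 gate takes cycling cells by DNA content, stem cell identity and cell cycle state cannot be told apart in it. *PCNA* was at 39.9 CPM in X2 and 400.7 CPM in X1, a log2 fold of -3.29 (-3.35 to -3.24). Of the 18151 transcripts that reached 1 CPM in X2 or X1, only 38 were lower. *mcm2* was at 13.8 CPM in X2 and 279.8 CPM in X1, a log2 fold of -4.24 (-4.34 to -4.15), and was the lowest of all 18151. At 2-fold, 6.69% of the transcripts were lower in X2 and 13.8% were higher, and the median log2 fold over all of them was 0.06. The study left *PCNA* out of its X2-enriched genes by an X2/X1 criterion with these libraries among its samples. That criterion applied to all X2 transcripts, and *mcm2* is also one of the known stem cell genes of the study. The direction of these genes is therefore not independent evidence. The ranks depend on the added 1: without it *mcm2* was number 26 and *PCNA* number 211 from the lowest.

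The pair differed from each other in this comparison by more than counting error. Expressed as a share of the X1 level, X2 held 4.94% of *mcm2* (4.60 to 5.29) and 9.97% of *PCNA* (9.56 to 10.4). The X2 over X1 ratio of *mcm2* was thus 0.495 times that of *PCNA* (Woolf interval 0.457 to 0.537). Both shares were below that of *piwi-1*, at 25.3% (25.0 to 25.5). *mcm5* was at 9.99% (9.48 to 10.5), and its X2 over X1 ratio did not differ from that of *PCNA* beyond counting error (ratio of ratios, *PCNA* to *mcm5*, 0.997, 0.933 to 1.07). In X1 over irradiated animals, by contrast, the ratio of *mcm2* was 0.674 times that of *PCNA* with an interval of 0.401 to 1.13, so the few reads left after irradiation do not separate the pair there.

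Of the 11 cell cycle and DNA replication transcripts, 7 had an X2 level at least 2-fold below X1 and 0 were 2-fold higher, and their median log2 fold was -2.82. Without *PCNA* and *mcm2*, 5 of the other 9 were 2-fold lower, with a median of -1.87. Over all transcripts 6.69% were 2-fold lower and 13.8% were 2-fold higher. Of all 59 known stem cell transcripts, 23 were 2-fold lower and 1 was 2-fold higher (median -0.64). *msh6*, at -4.22 (-4.38 to -4.06), and *H2B*, at -3.96 (-4.04 to -3.87), followed *mcm2*. *CyclinB2* was at -2.82 (-2.89 to -2.74) and *RRM2B* at -1.87 (-1.91 to -1.83). *Rb* and *CyclinD2* stood apart from these. *Rb* kept 71.6% of its X1 level in X2 (69.9 to 73.4), and *CyclinD2* was at 38.7 CPM in X2 and 29.9 CPM in X1, a log2 fold of 0.36 (0.28 to 0.45). *H2A* and *H3* kept 65.8% (65.1 to 66.4) and 58.7% (57.9 to 59.4). Known progeny transcripts ran the other way, with all 5 of the known X2 progenitor genes 2-fold or more above X1, but these were listed by the study as X2 genes.

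**Figure D3:**
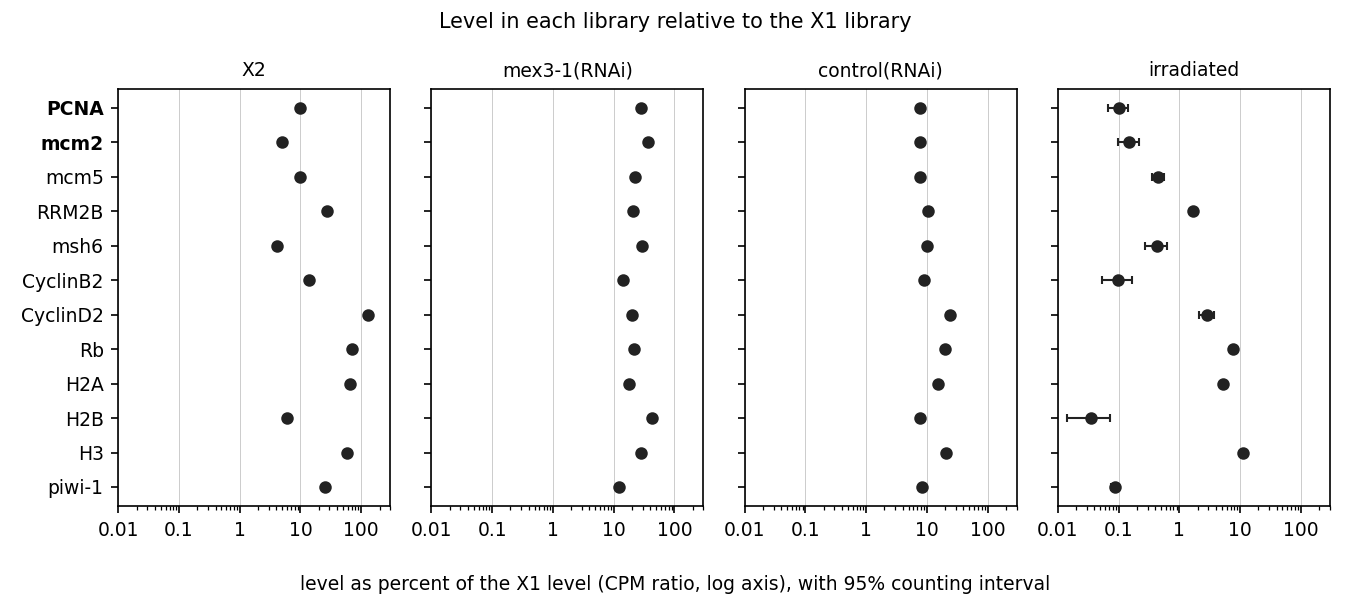
Level of the 11 cell cycle and DNA replication transcripts and of *piwi-1* in the other libraries, as percent of the level in X1 (log axis, ratio of CPM, with 95% counting intervals). In X2 *mcm2* and *PCNA* lie at 4.94% and 9.97%, while *Rb*, *H2A* and *H3* lie above 50%; in *control(RNAi)* animals *PCNA*, *mcm2*, *mcm5* and *H2B* lie between 7.71% and 7.79%.

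In whole *control(RNAi)* animals *PCNA*, *mcm2*, *mcm5* and *H2B* stood at nearly the same share of their X1 level. That share was 7.79% for *PCNA* (7.45 to 8.14), 7.74% for *mcm2* (7.33 to 8.16), 7.71% for *mcm5* (7.29 to 8.14) and 7.71% for *H2B* (7.32 to 8.13), and the intervals overlap. *piwi-1* was just above them at 8.32% (8.20 to 8.43), with an interval that does not overlap theirs. *RRM2B*, at 10.4% (9.92 to 10.8), and *msh6*, at 10.2% (9.36 to 11.2), were higher, with intervals that do not overlap those of *PCNA* and *mcm2*. The rest of the list was also higher. *CyclinB2* was at 8.90% (8.39 to 9.43), *H2A* at 15.5%, *Rb* at 19.8%, *H3* at 20.6% and *CyclinD2* at 23.6%. Among the 59 known stem cell transcripts the shares ran from 7.71% to 88.8% with a median of 20.6%, and *mcm2* and *PCNA* were the third and the fourth from the lowest. In *mex3-1(RNAi)* animals the shares of the pair were higher and differed from each other. *mcm2* reached 37.2% of its X1 level in *mex3-1(RNAi)* animals (36.2 to 38.3) and *PCNA* 28.6% (27.8 to 29.3), while *piwi-1* was at 12.2% (12.1 to 12.4). The share of *piwi-1* was the lowest of the 59 there. Their shares reached up to 78.3% with a median of 27.3%, so that of *PCNA* was near the median. From the lowest, *PCNA* was number 37 and *mcm2* number 51. All these shares set whole animals against a sorted fraction, so they do not measure the share of stem cells in an animal. X1 was sequenced with X2 and the irradiated library, so fraction and sequencing run cannot be told apart in them.

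The knockdown comparison asks what happens to whole animals with reduced *mex3-1*. The study already reported higher cell cycle genes from this knockdown RNAseq. It also saw higher *PCNA* and *H2B* by in situ hybridization, at an earlier day than that of these libraries. *PCNA* had 114 CPM in *mex3-1(RNAi)* animals against 31.2 CPM in *control(RNAi)* animals, a ratio of 3.59 (3.42 to 3.76) and a log2 fold of 1.84 (1.77 to 1.91). *mcm2* was at 104 CPM and 21.6 CPM, a ratio of 4.64 (4.40 to 4.90) and a log2 fold of 2.21 (2.14 to 2.29). A 2-fold higher level was rare in this pair of libraries, met by 0.412% of 19639 transcripts, or 81 in all. *mcm2* was number 7 and *PCNA* number 15 from the highest. The median log2 fold over all transcripts was 0.01. Each of these libraries pools 3 RNA preparations, so the spread between preparations is not visible.

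The ratio was larger for *mcm2* than for *PCNA*, and larger for both than for *piwi-1*, by more than counting error. Ratios between genes here are of CPM without the added 1. The *mex3-1(RNAi)* over *control(RNAi)* ratio of *mcm2* was 1.31 times that of *PCNA* (Woolf interval 1.22 to 1.41). *piwi-1* was at 452 CPM in *mex3-1(RNAi)* and 308 CPM in *control(RNAi)*, a ratio of 1.469 (1.443 to 1.495). On that scale the ratio was 3.67 (3.50 to 3.85) for *PCNA* and 4.81 (4.54 to 5.09) for *mcm2*. The ratio of *PCNA* was 2.50 times that of *piwi-1* (2.37 to 2.63), and that of *mcm2* was 3.27 times (3.09 to 3.47). Progeny markers were lower in the same animals: 29 of 32 new epithelial progenitor transcripts and 4 of 5 known X2 progenitor transcripts were at least 2-fold lower, against 1.02% of all transcripts. *prog-2* was at 14.0 CPM in *mex3-1(RNAi)* and 485 CPM in *control(RNAi)*, and *AGAT-1* at 11.8 and 224 CPM. The part of this shift in the values of *PCNA* and *mcm2* was not tested.

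Of the other genes on the list, *H2B*, *mcm5* and *msh6* were at least 2-fold higher with the pair, and the rest differed less. Of the 11 list members, 5 had a level at least 2-fold higher in *mex3-1(RNAi)*, 7 reached 1.5-fold, and 0 were 1.5-fold lower. Their median log2 fold was 0.97. Without *PCNA* and *mcm2*, 3 of the other 9 were 2-fold higher and 5 reached 1.5-fold, with a median of 0.66. Over all transcripts, 1.7% were 1.5-fold higher and 1.99% were 1.5-fold lower. The 5 of the 11 that were at least 2-fold higher were *H2B*, *mcm2*, *PCNA*, *mcm5* and *msh6*. In the same order, *H2B* had 122 against 21.95 CPM, a log2 fold of 2.42 (2.34 to 2.49). *mcm5* had 58.4 against 19.9 CPM, or 1.51 (1.42 to 1.60), and *msh6* had 23.8 against 8.20 CPM, or 1.43 (1.30 to 1.56). *RRM2B*, at 0.97 (0.90 to 1.04), and *CyclinB2*, at 0.66 (0.56 to 0.76), lay between 1.5-fold and 2-fold. The other 4 lay below 1.5-fold in either direction. *H3* was at 0.42 (0.39 to 0.46), *H2A* at 0.20 (0.17 to 0.23), *Rb* at 0.14 (0.08 to 0.21) and *CyclinD2* at -0.19 (-0.36 to -0.02). Of the other 48 known stem cell transcripts, 0 were 2-fold higher and 8 were 1.5-fold higher (median 0.24).

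**Figure D4:**
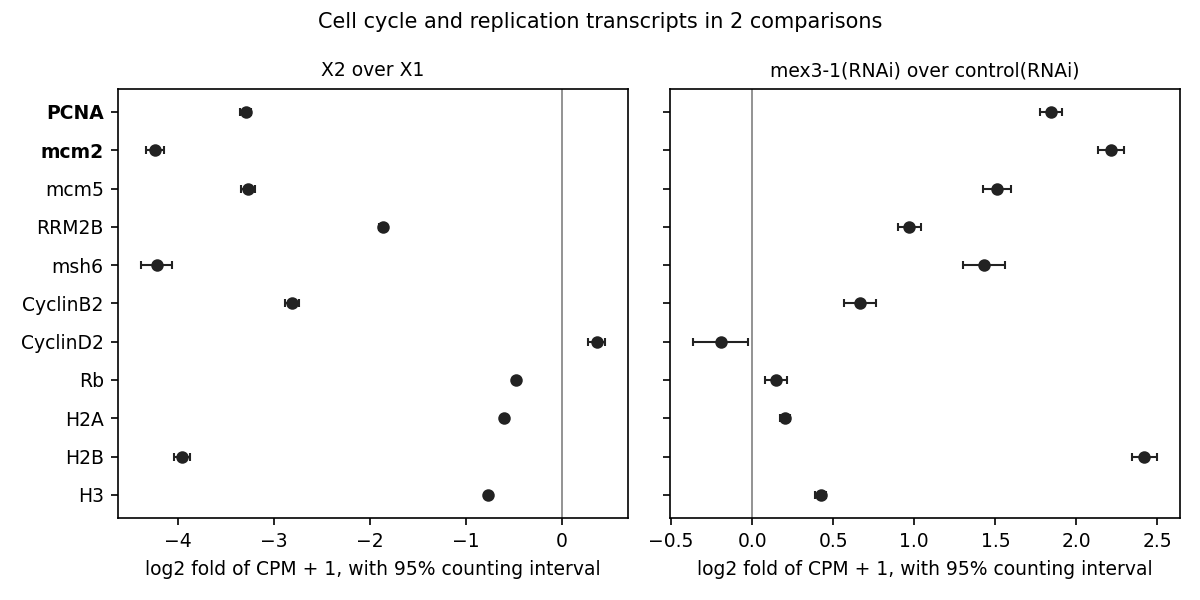
Log2 fold of CPM + 1 of the 11 cell cycle and DNA replication transcripts in X2 over X1 (left) and in *mex3-1(RNAi)* over *control(RNAi)* animals (right), with 95% counting intervals. *mcm2*, at -4.24 and 2.21, and *PCNA*, at -3.29 and 1.84, lie far from 0 in both, whereas *CyclinD2*, at 0.36 and -0.19, lies on the other side of 0 in both.

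The known stem cell genes that were higher after knockdown were also lower in X2 than in X1. The X2 over X1 and the *mex3-1(RNAi)* over *control(RNAi)* comparison share no library. All 15 of the known stem cell transcripts that were at least 1.5-fold higher in *mex3-1(RNAi)* belonged to the 23 with an X2 level at least 2-fold below X1, and 0 came from the other 36. *PCNA*, *mcm2*, *H2B*, *mcm5* and *msh6* had the 5 highest knockdown folds of the 59. Among all transcripts, 47 of the 81 that were 2-fold higher in *mex3-1(RNAi)* were also 2-fold lower in X2 than in X1, which is 58.0% of those 81 and 3.87% of the 1214 that were 2-fold lower in X2. *PCNA* and *mcm2* are among the 47. Over all transcripts tested in each comparison, 6.69% were 2-fold lower in X2, and in *mex3-1(RNAi)* 0.412% were 2-fold higher and 1.7% were 1.5-fold higher.

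**Figure D5:**
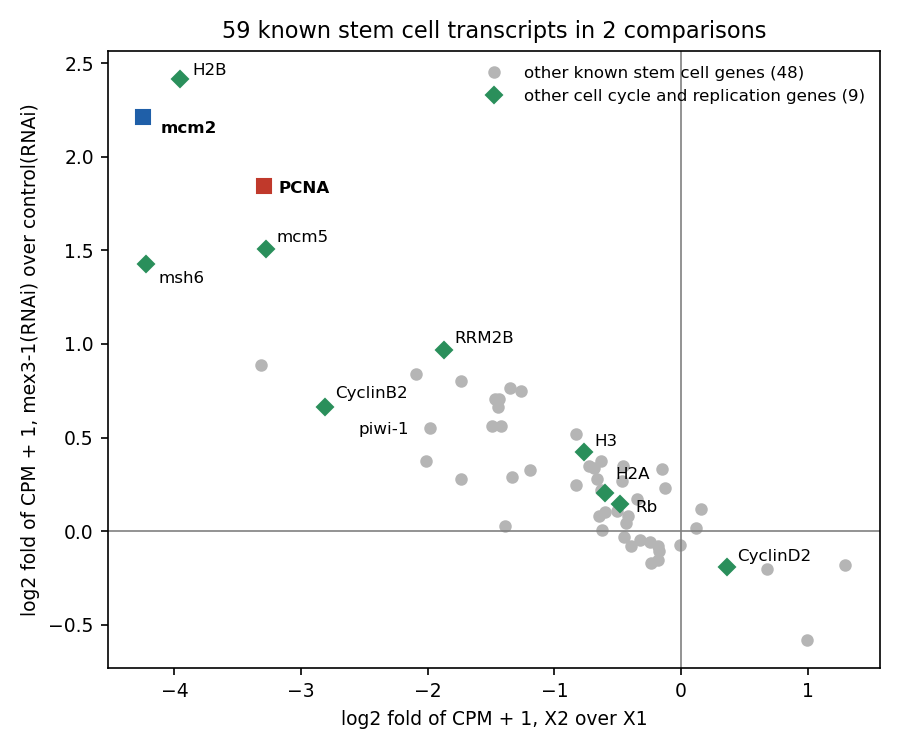
Log2 fold of CPM + 1 in X2 over X1 (horizontal axis) and in *mex3-1(RNAi)* over *control(RNAi)* animals (vertical axis) for the 59 known stem cell transcripts, with *PCNA* and *mcm2* as squares, the other 9 cell cycle and DNA replication genes as diamonds and the other 48 as grey circles. *mcm2*, at -4.24 and 2.21, is farthest left, and *piwi-1*, at -1.98 and 0.55, lies nearer the centre.

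The pattern over all libraries was compared by the mean absolute difference of log2(CPM + 1) between 2 transcripts over the 5 libraries, after each was centred on its own mean. The difference between *PCNA* and *mcm2* was 0.38. Among 13947 transcripts with at least 5 CPM in their highest library, that placed *mcm2* as number 7 from the nearest to *PCNA* and *PCNA* as number 5 from the nearest to *mcm2*, whereas the median difference of a transcript was 2.21 from *PCNA* and 2.26 from *mcm2*. The other known stem cell genes nearest to *PCNA* were *H2B* (0.28), *mcm5* (0.43) and *CyclinB2* (0.46). Those nearest to *mcm2* were *H2B* (0.18), which was the nearest of all transcripts, *mcm5* (0.52) and *msh6* (0.57). The added 1 narrows differences in the irradiated library, where *H2B* was at 0.100 CPM and *mcm2* at 0.415 CPM. Patterns were not compared without it. The transcripts nearest to *PCNA* were SmedASXL_007040 (0.12) and SmedASXL_012910 (0.22), and SmedASXL_012910 was also the second nearest to *mcm2* (0.25). The sources used here give these 2 no gene name. The 5 points of each pattern include the X1, X2 and irradiated libraries that were sequenced together, and all libraries are scaled by their own totals.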

How the data were processed

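RNAseq of 5 libraries was used, 1 per condition. The authors mapped single-end reads without trimming using Bowtie2 2.2.4, per the labels and the paper, to the SmedASXL transcriptome, and deposited a signal per transcript, CPM + 1, with no length scaling. Subtracting 1 and dividing by the smallest step of a library returned whole reads for every value, within 0.01 read, with totals of 64821930 (X1), 60528509 (X2), 63209234 (*mex3-1(RNAi)*), 68883087 (*control(RNAi)*) and 69835694 (irradiated). A row naming no transcript held at most 4.94e-05% of a total and was left out. Another 10 deposited columns, which match no sample of the series, were not used. By their headers they hold further X1, X2, irradiated and control libraries, and the study counts some of them as replicates, so they bear on the spread between libraries that is not given here. Nor were the authors' tables of fold changes and adjusted p-values.

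Folds are ratios of CPM + 1. Ranks, medians and percentages over all transcripts are over transcripts that reached 1 CPM in 1 of the 2 libraries compared. Intervals (95%) cover counting error: exact Poisson, exact Clopper-Pearson, and Woolf for ratios of ratios. A count of 0 would allow 3 reads, or 0.0430 to 0.0496 CPM. The members, lists and the rule for named genes (both members, their list, the targeted gene, *piwi-1*, *prog-1*, *prog-2*, *AGAT-1* and the transcripts nearest in pattern) were chosen with earlier results of these data known. Names and the lists of known stem cell, known X2 progenitor and new epithelial progenitor genes come from the supplement of the study. The cell cycle and DNA replication list and the PIWI, Vasa, Tudor and Bruli group were picked here from its known stem cell genes. Alternatives were a pseudocount of 0 or of 5 CPM, folds centred on the median transcript (minimum 5 CPM in each library), totals that leave out the 10 most abundant transcripts, and other filters and fold thresholds. The calculation was tested on simulated data. Software was scipy 1.17.1, numpy 2.4.6 and pandas 2.3.3 under Python 3.11.15, with figures drawn in matplotlib 3.10.9.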

Additional observations from a re-analysis of the deposited data

How the results depend on the processing

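All 40 fold values of *PCNA* and *mcm2* kept their direction under the alternatives, and 13 stayed inside the counting interval. Without a pseudocount the log2 folds of *PCNA* and *mcm2* were 9.96 and 9.40 in X1 over irradiated, 6.64 and 5.06 in X2 over irradiated, and 6.28 and 5.70 in *control(RNAi)* over irradiated, and that of *mcm2* in X2 over X1 was -4.34. With a pseudocount of 5 CPM they were 6.23 and 5.72, 3.06 and 1.80, 2.74 and 2.30 in these comparisons with irradiated animals, -3.17 and -3.92 in X2 over X1, and 1.72 and 2.03 in *mex3-1(RNAi)* over *control(RNAi)*. With the median fold set to 0 they were 7.94 and 7.41 in X1 and 4.56 and 3.08 in X2 over irradiated. That median, before it was set to 0, was 0.23 in X1 over irradiated, 0.31 in X2 over irradiated and at most 0.09 in the other comparisons. Without the 10 most abundant transcripts the log2 folds were 8.52 and 7.98 in X1, 5.21 and 3.71 in X2, and 4.73 and 4.20 in *control(RNAi)* over irradiated. Of 60 counts over the list of 11, 1 moved by over 1.5 times: 3 members were at least 3-fold higher in *mex3-1(RNAi)*. Counts over all transcripts depended on the pseudocount. With 5 CPM, 3277 were 2-fold higher in X1 over irradiated, 2973 higher and 4328 lower in X2 over irradiated, 1141 higher and 581 lower in X2 over X1, 258 higher and 53 lower in *control(RNAi)* over irradiated, and 34 higher and 125 lower in *mex3-1(RNAi)*. Without one, 1940 were lower in X2 over X1, 1085 higher and 149 lower in *control(RNAi)* over irradiated, and 174 higher in *mex3-1(RNAi)*. Chosen after seeing the data, the rank of *mcm2* from the highest in *mex3-1(RNAi)* was 20 without a pseudocount and 3 with 5 CPM, and that of *PCNA* 36 and 7. No paired analysis was possible because each condition has 1 library. Depth limits the irradiated values most, at 28 and 29 reads.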
